A study of Mus musculus with 2 samples.

Results

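The genes described here carry signals from the insulin receptor to AKT, from nutrients to the mTOR complexes and from cellular energy state to AMPK in the liver. They form a list of 34 genes chosen by name, with earlier results of these data known. Probe sets annotated to 1 gene symbol were found for 32 of them, of 18194 named genes on the array, and 24 had a signal intensity above 500 in at least 1 pool, as did 5076 genes in all. These 24 are called measured. No probe set was assigned here to Enpp1, a pyrophosphatase that inhibits the insulin receptor, or to Rps6kb1, the S6 kinase 1 gene. No signal was read for either, and both enter only the search of sequences around gene start sites.

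Liver RNA came from 2 inbred mouse strains derived from different lines of the outbred ddN colony. FLS (fatty liver Shionogi) mice are a spontaneous model of NASH, while the sister strain DS (dd Shionogi), whose livers show simple steatosis, was the reference. RNA of 3 FLS mice and of 3 DS mice, all aged 19 weeks and kept on a standard pellet diet without drug or genetic treatment, was pooled by strain, and each pool was hybridized to 1 Affymetrix mouse expression array. The strain and the liver disease cannot be told apart in this design, and neither the sex nor the feeding state at sampling was given in the sources used. The authors condensed the perfect-match probes of each probe set into a linear, normalized signal intensity. Each strain has a single array and there is no replicate check, so fold changes are FLS/DS ratios without error or p-value, and signals of different genes are not compared because each probe set has its own response.

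The median signal over all probe sets was 120.3 for FLS and 125.2 for DS. Both pools carried hepatocyte RNA, as all 11 hepatocyte markers on the array were measured, with ratios from 0.867 to 1.12 and summed signals of 205329 in FLS against 198913 in DS livers. Of 10 markers of hepatic stellate cells, 4 were measured, with ratios from 1.37 to 2.78. Of these 2, the collagen genes Col3a1 and Col1a2, had signals at least 2-fold higher in the FLS pool. Stellate markers below 500 had ratios from 0.880 (Lrat) to 2.02 (Pdgfrb). The summed signal was 12019 in FLS against 8254 in DS livers, of which Dcn gave 6550 and 4770. Of 11 markers of Kupffer cells and macrophages, 8 were measured with ratios from 0.554 to 1.43, and the summed signals were 7345 and 8581. Of these sums Cd5l gave 1484 and 2260. The 7 markers of sinusoidal endothelial cells summed to 6394 and 6113. None of the markers of cholangiocytes, T and NK cells, B cells, neutrophils, adipocytes or skeletal muscle exceeded 500. The lowest signal of any marker was 50.2 in FLS and 50.9 in DS livers. Of 3 erythroid markers 1 was measured, Alas2, the erythroid enzyme of heme synthesis, at 847 in FLS against 5423 in DS livers. The others were low in both pools, Hba-a1 at 52.7 and 52.1 and Slc4a1 at 103 and 117. Hba-a1 was read from a single probe set, and probe sets annotated to several genes were not used. The part of these cell types in the ratios below was not tested.

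As background, insulin binding activates the receptor kinase, which phosphorylates the docking proteins IRS1 and IRS2. These recruit PI3-kinase, and the lipid it makes brings PDK1 and AKT together at the membrane. AKT then restrains the kinase GSK3 and the FOXO transcription factors and releases mTOR complex 1, which raises protein synthesis, while AMPK senses a fall in ATP and opposes mTOR complex 1. In the liver this network sets the balance between glucose output and lipid synthesis. Its steps are largely protein phosphorylations, which an array of messenger RNA does not measure.

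None of the 24 measured genes differed 2-fold between the strains in either direction, on the probe set taken for each gene (another probe set of Deptor did). The background over all 5076 measured genes was 2.29% (116 genes) for a 2-fold higher and 1.77% (90 genes) for a 2-fold lower signal in FLS livers. Division of all ratios by that of the β-actin gene Actb, which had a signal of 6891 in FLS against 7944 in DS livers, would turn these into 171 and 72 and raise every log2 ratio by 0.21. At a limit of 1.5-fold, 2 pathway genes were higher, Grb14 and Eif4ebp2, against 6.11% of all measured genes, and none was lower, against 4.49%. The ratios ran from 0.683 (Prkaa2) to 1.64 (Grb14). Of the 24 genes, 17 had a ratio above 1 and 7 a ratio below 1, so that 70.8% lay above 1, compared with 56.4% of all measured genes. The median log2 ratio was 0.16 over the 24 genes and 0.04 over all measured genes, and the median size of the log2 ratio without its sign was 0.28 and 0.19.

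A yardstick within these arrays is the spread between measured probe sets of 1 gene, which had a pooled SD of 0.22 on the log2 scale over 1424 genes. Of the 24 genes, 9 had a log2 ratio within this SD of 0 (37.5%, compared with 57.3% of all measured genes), 10 lay above it and 5 below. The split of all measured genes above and below it was not computed, and 56.4% of their ratios lay above 1. This SD covers differences between probe sets only and not those between mice, and fewer cells of a type and less RNA per cell cannot be told apart in whole liver.

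**Figure D1:**
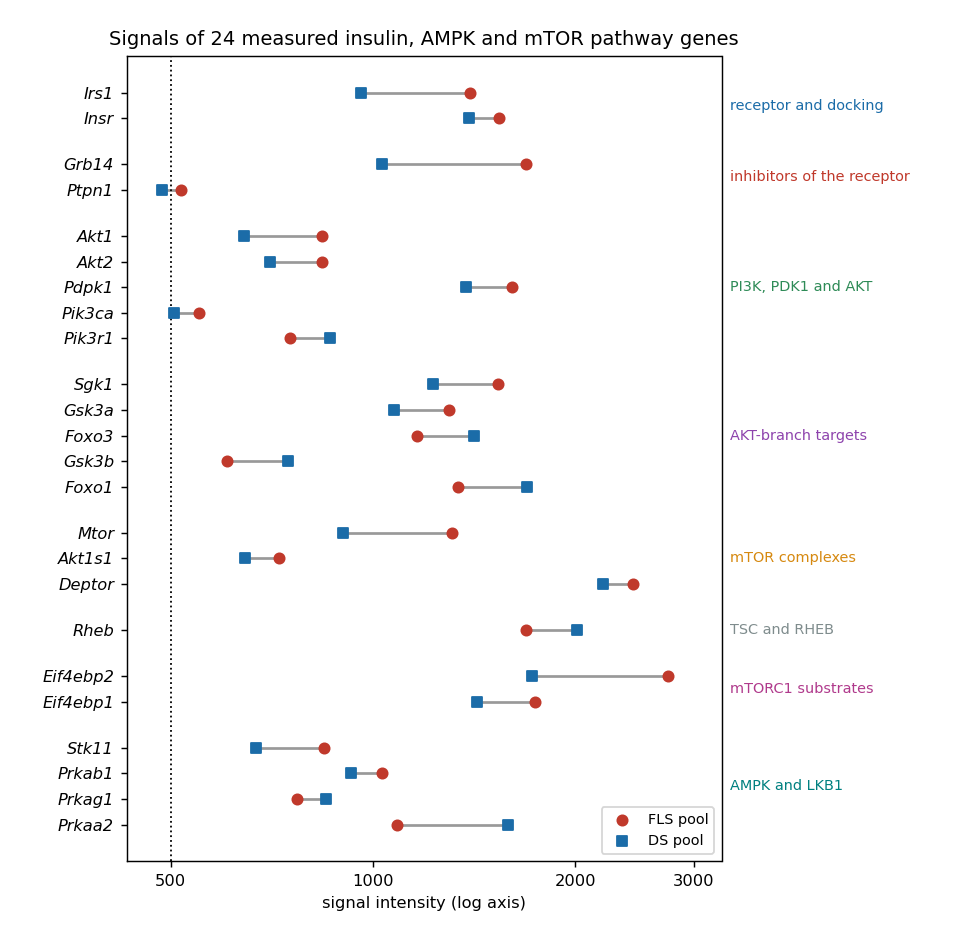
Signal intensity (log axis) of the 24 measured genes for FLS (circles) and DS (squares), grouped by role and ordered by ratio within a role. The dotted line marks a signal of 500. The FLS circle lies to the right for 17 genes, farthest from its square for Grb14 (1.64-fold) and Eif4ebp2 (1.59-fold), and to the left for 7, farthest for Prkaa2 (a ratio of 0.683).

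At the receptor, Insr, the insulin receptor gene, had a signal of 1537 in FLS against 1389 in DS livers, a ratio of 1.11. Its other probe sets lay near the array median in both pools. Irs1, which encodes the docking protein that links the receptor to PI3-kinase, was read from a single probe set at 1396 in FLS against 958 in DS livers, a ratio of 1.46. Irs2, the other hepatic docking protein gene, had a single annotated probe set at 269 in FLS against 276 in DS livers, below the limit of 500. Irs1 was thus the higher of these genes by ratio, on 1 probe set.

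The sequences before the start sites of the docking protein genes are shown because both hold a motif of the insulin response type. A search was made for TGTTTAC and TATTTAC, letters of FOXO binding sites, and for TGTTTTG and TATTTTG, letters of insulin response sequences, on both strands of the 300 bases from 250 before to 50 after each start site in RefSeq (GRCm38.p6). Of 32851 such windows of all genes, 15.9% held at least 1 of the 4 motifs, and of 41 windows of 30 genes of the present list, 7 did (17.1%), 1 each for Irs1, Irs2, Akt1, Akt2, Pik3r1, Stk11 and Enpp1. None of the motifs contains another. TGTTTTG alone was in 6.28% of all windows. Crtc2, Deptor, Eif4ebp1 and Insr had no entry. Irs1 holds TGTTTTG at 111 and again at 32 bases before its start site, and Irs2 holds it at 37 bases before. The 250 bases before the start sites are given on the strand of the gene, at chr1:82291440-82291689 (minus strand) for Irs1 and chr8:11008930-11009179 (minus strand) for Irs2, with the matches in capitals.
Irs1: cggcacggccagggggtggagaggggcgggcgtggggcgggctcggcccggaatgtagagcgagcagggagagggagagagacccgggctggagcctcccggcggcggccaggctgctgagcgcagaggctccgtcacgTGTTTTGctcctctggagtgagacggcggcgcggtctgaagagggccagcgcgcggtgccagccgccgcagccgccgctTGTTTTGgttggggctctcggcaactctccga
Irs2: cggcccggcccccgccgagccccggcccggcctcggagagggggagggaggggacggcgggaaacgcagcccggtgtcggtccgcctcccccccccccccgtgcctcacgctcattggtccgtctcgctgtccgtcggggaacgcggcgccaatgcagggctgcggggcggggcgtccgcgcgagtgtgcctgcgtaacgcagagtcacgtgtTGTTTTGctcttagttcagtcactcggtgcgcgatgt
A match is a run of letters and no evidence of binding in these livers.

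Grb14 and Ptpn1 act against the receptor. Grb14, an adaptor that binds the activated receptor and blocks its kinase, had a signal of 1689 in FLS against 1033 in DS livers. Its ratio of 1.64 was the highest of the 24 genes and stayed between 1.61 and 1.89 under the alternatives in which it was measured. The other probe set of Grb14 lay near the array median, at 62.7 and 67.0. Ptpn1, the tyrosine phosphatase PTP1B, which removes phosphate from the receptor, had a signal of 518 in FLS against 486 in DS livers, a ratio of 1.07.

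All 5 genes of the step from PI3-kinase to AKT were measured, 4 with a ratio above 1. Akt1 was at 838 in FLS against 642 in DS livers, a ratio of 1.31. Its probe sets below 500 lay the other way, at 218 and 243 (0.895), 175 and 209 (0.837), and 74.8 and 77.4 (0.967). Akt2, the main AKT gene of insulin action in the liver, was at 840 and 702, a ratio of 1.20. Pdpk1, the gene of the kinase PDK1 that phosphorylates AKT, was at 1607 and 1377, a ratio of 1.17, and Pik3ca, the catalytic subunit p110α, was at 551 and 506, a ratio of 1.09. The regulatory subunit gene Pik3r1 lay the other way, at 751 in FLS against 862 in DS livers, a ratio of 0.872. Probe sets of Pik3r1 that lay below 500 but not near the array median had lower ratios, 0.640 (235 and 367) and 0.682 (239 and 351). Catalytic and regulatory subunit thus lay on opposite sides of 1, each by less than the SD between probe sets of a gene on the measured probe set, and Pik3r1 crossed 1 after division by Actb.

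Among the targets of AKT and PDK1, the 2 FOXO genes and Gsk3b were lower and Gsk3a and Sgk1 higher in FLS livers. Foxo1 encodes the transcription factor that drives hepatic glucose output when insulin is low. Its 3 measured probe sets had signals of 1339 in FLS against 1694 in DS livers (a ratio of 0.791), 605 and 1018 (0.595), and 556 and 743 (0.749). The 3 lay on the same side of 1, and 1 of them passed the lower 1.5-fold limit that the gene value did not. Foxo3, a related factor, was at 1161 and 1412, a ratio of 0.822, and at 663 and 853 on its other measured probe set, a ratio of 0.777. All 5 measured probe sets of the FOXO genes thus had ratios below 1, and under the other scalings Foxo1 ran from 0.778 to 0.911 and Foxo3 from 0.807 to 0.948.

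The GSK3 genes encode kinases that inhibit glycogen synthase. Gsk3a was at 1296 in FLS against 1074 in DS livers, a ratio of 1.21, while Gsk3b was at 607 and 747, a ratio of 0.812. Sgk1, a kinase gene that responds to glucocorticoids and is activated through PDK1 and mTOR complex 2, was at 1537 and 1229, a ratio of 1.25. The paralogous Gsk3a and Gsk3b lay on opposite sides of 1 on their measured probe sets. Under the other scalings of the arrays Gsk3a ran from 1.18 to 1.39 and Gsk3b from 0.787 to 0.936. Probe sets of Gsk3b below 500 lay on both sides of 1, with ratios from 0.872 (209 and 240) to 1.14 (93.0 and 81.4). Between them was 1 at 365 in both pools, a ratio of 0.999.

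**Figure D2:**
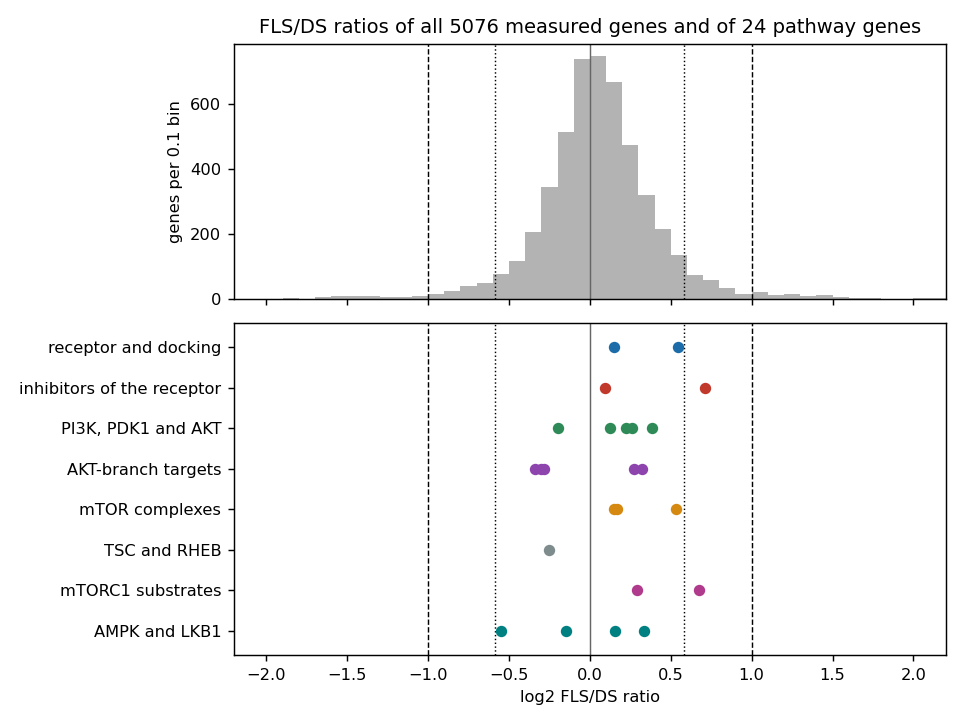
Upper panel, number of genes per 0.1 bin of the log2 FLS/DS ratio for all 5076 measured genes, of which 42 lie beyond 2.2 on either side and are not drawn. Lower panel, log2 ratio of each of the 24 measured pathway genes (1 point per gene) by role. Dotted lines mark 1.5-fold and dashed lines 2-fold differences. All 24 points lie within the dashed lines, and 2, of Grb14 and Eif4ebp2, lie beyond a dotted line.

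mTOR, the kinase shared by both mTOR complexes, had a higher signal in the FLS pool. Mtor was at 1308 in FLS against 903 in DS livers, a ratio of 1.45, on 1 measured probe set, while a probe set below 500 was at 261 and 248, a ratio of 1.05. Akt1s1 encodes PRAS40, an inhibitor of complex 1 that AKT phosphorylates. It was at 724 and 644, a ratio of 1.13, but at 477 and 580, a ratio of 0.822, on its other measured probe set, so that its direction depends on the probe set. The scaffold genes of the complexes did not reach 500. Rptor (complex 1) was at 416 in FLS against 374 in DS livers and Rictor (complex 2) at 448 and 315, while Mlst8, a subunit of both, lay near the array median at 148 and 133.

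Deptor, which encodes an inhibitor of both mTOR complexes, was the gene of this list whose probe sets differed most. Of its 6 probe sets 4 were measured. The probe set that gives the value of the gene was at 2437 in FLS against 2201 in DS livers, a ratio of 1.11. A further one was at 2233 and 2284, a ratio of 0.978, and another, of the _s_at type that can match several transcripts, at 1620 and 1706, a ratio of 0.950. These 3 had nearly equal signals in both strains. The remaining measured probe set was at 2770 in FLS against 644 in DS livers, a ratio of 4.30. Below 500, a probe set was at 347 and 321, a ratio of 1.08, and the last lay near the array median at 50.4 and 50.6. A difference of more than 4-fold was thus seen on 1 of 4 measured probe sets, and the value of the gene is 1.11 or 4.30 depending on which is read. The positions of the probes within the transcripts were not analysed here, so a difference in transcript form, in probe sequence between the strains or in the assignment of this probe set was not tested.

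**Figure D3:**
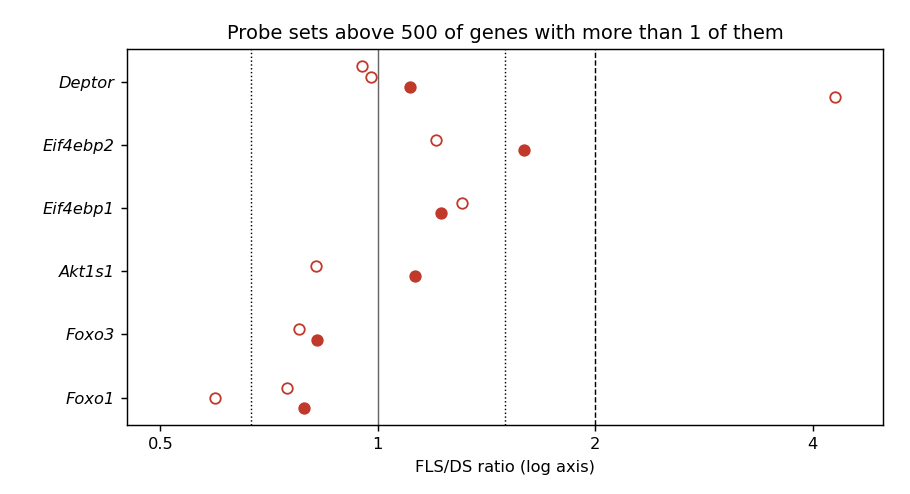
FLS/DS ratio (log axis) of each measured probe set of the 6 genes with more than 1 of them. Filled circles are the probe sets that give the value of the gene, open circles the others. Dotted lines mark 1.5-fold and the dashed line a 2-fold difference. For Deptor 3 circles lie from 0.950 to 1.11 and 1 at 4.30, while all circles of Foxo1 and Foxo3 lie below 1 and all of Eif4ebp1 and Eif4ebp2 above 1.

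Upstream of mTOR complex 1, the TSC1 and TSC2 proteins inhibit the small GTPase RHEB, which activates the complex. Rheb was at 1687 in FLS against 2008 in DS livers, a ratio of 0.840. Tsc1 was at 333 and 295 and Tsc2 at 333 and 311, both below 500. Downstream, the 4E-BP genes encode repressors of cap-dependent translation that mTOR complex 1 inactivates. Eif4ebp2 was at 2744 in FLS against 1722 in DS livers, a ratio of 1.59, and at 1347 and 1120, a ratio of 1.20, on its other measured probe set. Its 3 probe sets below 500 had ratios from 0.868 to 0.975. Eif4ebp1 was at 1743 and 1427, a ratio of 1.22, and at 1535 and 1174, a ratio of 1.31, on the other. The 4 measured probe sets of the 2 genes all had a higher signal in the FLS pool, and 1 of them passed 1.5-fold.

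AMPK is a kinase of 3 subunits, α (catalytic), β (scaffold) and γ (which binds the adenine nucleotides). The catalytic subunit gene Prkaa2 had the lowest ratio of the 24 genes, 0.683, at 1085 in FLS against 1590 in DS livers. Its other probe sets were at 203 and 251 and at 179 and 224, with ratios of 0.809 and 0.796, so all 3 were lower in the FLS pool. The other catalytic subunit gene, Prkaa1, lay near the array median at 128 and 117 on its single probe set. Prkab1 (β subunit) was at 1030 and 926, a ratio of 1.11, and Prkag1 (γ subunit) at 771 and 852, a ratio of 0.905, which turned to 1.04 after division by Actb. Stk11, which encodes the upstream kinase LKB1, was at 844 and 669, a ratio of 1.26. Crtc2, a coactivator of gluconeogenic genes that AMPK-related kinases hold in the cytoplasm, was at 216 and 229, below 500.

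In all, 8 of the 32 genes found on the array stayed below 500 in both pools (Irs2, Rptor, Rictor, Mlst8, Tsc1, Tsc2, Prkaa1 and Crtc2), with ratios from 0.943 to 1.42, the highest for Rictor. Low signal here may reflect the probe set and sets no level of the transcript.

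The other genes of the pathway, in lists that did not include those above, are given by their counts. Among 21 further genes of the PI3-kinase and AKT pathway on the array, 4 were measured, 1 at least 2-fold higher and none lower, with a median log2 ratio of 0.12. The higher gene was Sgk2, a kinase related to Sgk1, at 3088 in FLS against 1505 in DS livers, a ratio of 2.05. Pde3b, a phosphodiesterase that AKT activates, had a ratio of 0.691, Mapkap1, a subunit of mTOR complex 2, of 1.18 and the adaptor gene Grb2 of 1.01. Of 20 other inhibitors of insulin signalling, 11 were measured, with a median log2 ratio of 0.27, 1 at least 2-fold higher and none lower. That gene was Trib3, a pseudokinase that binds AKT and is induced by cellular stress, at 786 in FLS against 190 in DS livers, a ratio of 4.13, and of 2.76 on its other measured probe set. Ceacam1, which promotes insulin clearance by the liver, had a ratio of 1.44, the phosphatase gene Ptpn2 of 1.36 and Trib1, another pseudokinase, of 0.668.

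Genes on either side of mTOR complex 1 stayed within 2-fold. Of 26 genes of amino acid sensing and other inputs, 13 were measured, with ratios from 0.730 to 1.24 and a median log2 ratio of -0.01. The GTPase gene Rraga had the lowest of them at 635 in FLS against 870 in DS livers, and Flcn, which encodes folliculin, the highest at 834 and 671, while Fnip2, a partner of folliculin, had a ratio of 0.830 and Rragc of 1.17. Of 14 output genes 9 were measured, with a median log2 ratio of 0.14. Lpin1, a phosphatidate phosphatase and coactivator, was the 1 gene at least 1.5-fold lower, at 1618 in FLS against 2522 in DS livers, a ratio of 0.642. The substrate gene Poldip3 had a ratio of 1.47, the initiation factor gene Eif4b of 1.39 and the cap-binding protein gene Eif4e, the target of the 4E-BPs, of 0.774. Of 21 other genes of the AMPK and LKB1 pathway, 5 were measured, none 2-fold different, with a median log2 ratio of -0.09. Sik1, a salt-inducible kinase that acts on CRTC2, had the lowest ratio, 0.544, at 438 in FLS against 805 in DS livers. Sik3 was at 0.733, but at 1.47 on its other measured probe set, and Cab39 and Cab39l, which encode partners of LKB1, were at 1.11 and 1.07.

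**Figure D4:**
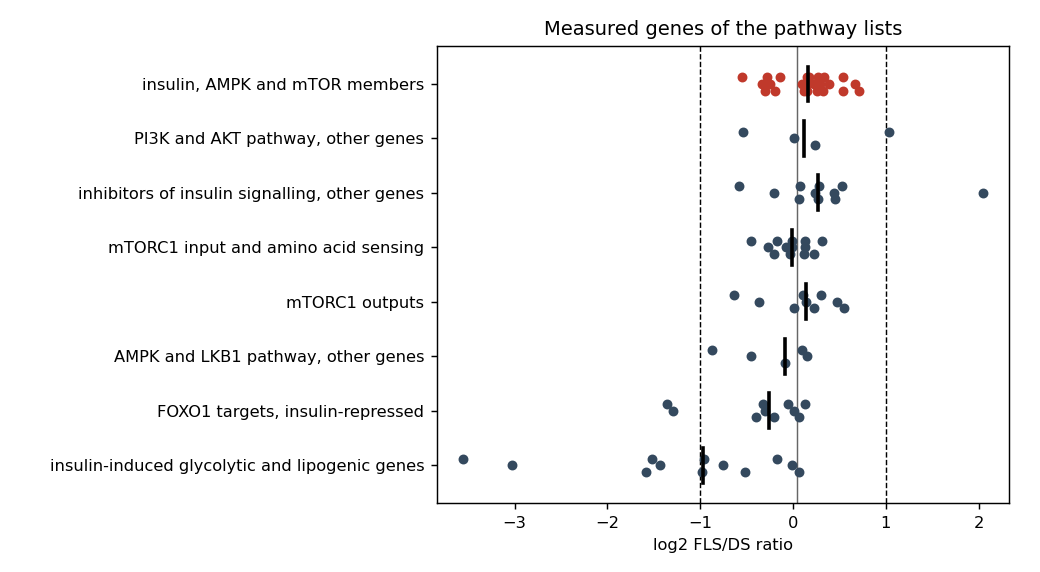
Log2 FLS/DS ratio of each measured gene (1 point per gene) of the 24 pathway genes and of 7 further lists, with the median of each list as a short bar. Dashed lines mark 2-fold differences and the solid line the median of all measured genes, 0.04. The 24 pathway genes and the lists around mTOR complex 1 and AMPK lie within the dashed lines, and the points beyond -1 belong to the 2 lists of genes under insulin control.

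Both lists of genes whose transcription responds to insulin held genes at least 2-fold lower in FLS livers. Over all 5076 measured genes this share was 1.77%, and the median log2 ratio was 0.04. Of 10 measured FOXO1 targets, which insulin represses, 2 passed the lower 2-fold limit and 8 lay between, with a median log2 ratio of -0.25. The lower genes were G6pc, the glucose-6-phosphatase gene, at 2336 in FLS against 5997 in DS livers, a ratio of 0.390, and Igfbp1, which encodes a secreted protein that sequesters IGFs, at 2762 and 6747, a ratio of 0.409. The cyclin gene Ccng2 had a ratio of 0.761 and the mitophagy gene Bnip3 of 0.797. The other measured targets were Mttp (0.809), Cpt1a (0.869), Pck1 (0.962, and 0.662 on its other measured probe set), Selenop (1.01), Apoc3 (1.05) and Klf15 (1.09). Below 500, Gadd45a had a ratio of 0.763, Fbxo32 of 1.36, Pdk4 of 1.67 and Ppargc1a of 1.95. Each of these had a signal near the array median in at least 1 pool. Of 12 measured genes of glycolysis and lipid synthesis that insulin induces, 5 were at least 2-fold lower, none was higher and 7 lay between, with a median log2 ratio of -0.97. Me1, the malic enzyme gene, was at 268 in FLS against 3159 in DS livers, and Elovl6, a fatty acid elongase gene, at 389 and 3178. Srebf1, which encodes the transcription factor SREBP1, was at 2112 and 6319, the fatty acid synthase gene Fasn at 1677 and 4822, and Thrsp, a regulator of lipid synthesis, at 5906 and 15952. Both lists were known from earlier results to hold such genes, so their counts are descriptions of these arrays.

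The bases before the start sites of Igfbp1 and G6pc are shown because these were the FOXO1 targets at least 2-fold lower. Of 14 windows of 12 FOXO1 target genes in RefSeq, 7 windows (50.0%) of 6 genes held at least 1 of the 4 motifs, against 15.9% of all windows. The genes were listed as FOXO1 targets, so this share is a description. Igfbp1 holds TGTTTTG, on the opposite strand, from 108 bases before its start site and TATTTTG from 97 bases before. G6pc holds TGTTTTG from 174 bases before its start site. The 250 bases lie at chr11:7197537-7197786 (plus strand) for Igfbp1 and chr11:101367466-101367715 (plus strand) for G6pc in GRCm38.p6, with the matches in capitals.
Igfbp1: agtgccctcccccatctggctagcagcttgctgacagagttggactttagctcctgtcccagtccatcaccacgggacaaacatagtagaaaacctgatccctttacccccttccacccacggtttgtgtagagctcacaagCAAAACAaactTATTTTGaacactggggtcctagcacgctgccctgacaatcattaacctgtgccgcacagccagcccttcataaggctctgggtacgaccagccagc
G6pc: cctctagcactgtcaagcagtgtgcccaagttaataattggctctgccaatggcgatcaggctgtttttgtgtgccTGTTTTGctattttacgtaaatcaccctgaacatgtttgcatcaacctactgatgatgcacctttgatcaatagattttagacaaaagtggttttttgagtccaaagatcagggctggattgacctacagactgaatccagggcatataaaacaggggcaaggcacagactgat
The docking protein gene Irs1, with a ratio of 1.46 on a single probe set, also holds TGTTTTG, which was in 6.28% of all windows. A relation between these motifs and the ratios was not tested.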

How the data were processed

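Liver messenger RNA of 2 pools, 1 of 3 FLS and 1 of 3 DS mice, was measured on 1 Affymetrix mouse expression array each. The deposited signal intensities were normalized and computed by the authors with MBEI from perfect-match probes, on a linear scale. The submitters' processing notes name affy, and the form of the normalization between the arrays is not stated in the sources used. Groups were taken from the strain in the labels.

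Of 45101 probe sets, 34958 had 1 gene symbol, 932 several and 9211 none, in the platform annotation used. Symbols were updated through Entrez numbers in a RefSeq table for 34754. Where a gene had several probe sets, that with the highest mean of both signals was taken, and the gene was measured if either signal exceeded 500. Ratios are FLS/DS with no offset. No test was possible with 2 arrays, whose number limits the precision. A signal under 1.5 times its array median is called near that median.

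The genes, lists and limits were chosen with earlier results of these data known. Named were all 34 genes, every measured probe set of those whose probe sets lay on both sides of 1.5-fold, and from each further list the genes at least 2-fold different and, up to 4 in all, those with the largest log2 ratios. Other probe sets, marker genes, further FOXO1 targets and further insulin-induced genes were named after their values were seen. Alternatives were quantile normalization, centring on the median, removal of a loess trend (fraction 0.4), division by Actb, an offset of 50, the median over measured probe sets, omission of _x_at and _s_at probe sets, signal limits of 200 and 1000 or none, and 500 in both pools. The calculations were tested on simulated data. The software was Python 3.11.15 with pandas 2.3.3, numpy 2.4.6, matplotlib 3.10.9 and statsmodels 0.14.6.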

Additional observations from a re-analysis of the deposited data

How the results depend on the processing

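The number of genes at least 2-fold different stayed at 0 in both directions under all alternatives listed, and 1 gene was higher when Deptor was read from its probe set at 4.30, a setting chosen after the data were seen. The number at least 1.5-fold higher was 5 instead of 2 after division by Actb, which added Irs1, Akt1 and Mtor, and was 1 (Grb14) with the median over measured probe sets. The number at least 1.5-fold lower was 1 (Foxo1, at 0.595) without _x_at and _s_at probe sets. With a signal limit of 1000, 15 genes were measured. The median log2 ratio ran from 0.14 (loess) to 0.37 (Actb), while that of all measured genes ran from -0.04 (no signal limit) to 0.25. Of 277 ratios of the 24 genes under alternatives, 3 shifted by more than the SD between probe sets of a gene. They were those of Foxo1 and Deptor as above, and of Akt1s1, which was 0.962 with the median over measured probe sets. Changes of the signal limit leave a ratio as it is, and the other reading of Deptor alters no other gene. Centring and division by Actb each move every log2 ratio by a fixed amount below this SD. Apart from that of Deptor, ratios under these settings could not pass the SD, so the count is no measure of stability. Under the 4 other scalings 22 of the 24 genes kept their side of 1, and Pik3r1 and Prkag1 crossed it after division by Actb. No paired analysis was possible because each strain has 1 array. The absence of replicates limits every ratio, and signals near the array median do not resolve differences.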

Other observations

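Below a signal of 500, and picked out after the values were seen, Tbc1d4, which encodes the AKT substrate AS160 that controls glucose transporter traffic, was at 357 in FLS against 85.1 in DS livers on 1 probe set, with the DS signal near the array median, and at 130 and 116 on the other. Acacb, which encodes the acetyl-CoA carboxylase of mitochondria that AMPK phosphorylates, was at 440 and 257 on 1 probe set, and near the array median at 119 and 131 on the other, a ratio of 0.908. Map3k7, which encodes the kinase TAK1 upstream of AMPK, was at 155 and 424 on the probe set with its highest mean signal, with the FLS signal near the array median, and had ratios from 0.784 to 1.08 on its 5 other probe sets.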
